A study of Mus musculus with 6 samples.

Results

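The Hox genes are a family of homeobox transcription factor genes that mark position along the body axis. All genes whose symbol is Hox, a cluster letter from a to d and a number were taken from the gene list of the P0 nerve library. They were followed by Ensembl identifier in all 6 libraries of the study. The rule found 39 genes among the 52081 genes that the 6 gene lists share. HoxA holds 11 of them, HoxB 10, HoxC 9 and HoxD 9, and all 39 identifiers stood in every list.

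The study asked how axons and glia assemble into Remak bundles, the groups of small axons held by non-myelinating Schwann cells. Droplet libraries of dissociated sciatic nerve cells were made at postnatal day 0, 7, 14, 28 and 60 (P0 to P60), from 22, 21, 18, 15 and 13 pooled C57BL/6 mice in that order. A further library came from lumbar dorsal root ganglia of 8 C57BL/6 mice at P14. The labels give no transgene and no treatment for any group, and both sexes were pooled in each library, with 12, 10, 10, 9 and 5 males in the nerve pools and 4 in the ganglion pool. Each age is 1 library, so a difference between ages, or between nerve and ganglion, has no replicate check and gets no p-value.

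Hox genes lie in 4 clusters, one on each of 4 chromosomes. Within a cluster the genes are numbered in the order in which they lie, and genes with the same number in different clusters are called paralogues. Low numbers are used from the hindbrain and neck onward and high numbers only towards the tail, so that the combination in a cell records the level of the body at which its precursors arose. Along the trunk, genes numbered 9 are used from the thoracic level on, and those numbered 10 and above mark the lumbar and sacral levels. Hox proteins bind DNA through the homeodomain, often together with partner homeodomain proteins of the TALE class such as Pbx and Meis.

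Paralogues share nearly the same DNA-binding part, which makes the difference in where they were transcribed easy to see. The homeobox sequences of the group 9 paralogues Hoxb9 and Hoxc9 are shown because Hoxb9 was high in endothelial cells and Hoxc9 in mesenchymal, perineurial and mural cells, while Schwann cells at P0 carried both. They are the 180 coding bases of the homeobox in GRCm38 with the GENCODE M21 annotation, read on the coding strand, and the capitals mark the 18 bases that encode the core of the third helix, which contacts DNA. Hoxb9 lies on the plus strand at chr11:96274659-96274838 (exon 2) and Hoxc9 on the plus strand at chr15:102983930-102984109 (exon 3).
Hoxb9: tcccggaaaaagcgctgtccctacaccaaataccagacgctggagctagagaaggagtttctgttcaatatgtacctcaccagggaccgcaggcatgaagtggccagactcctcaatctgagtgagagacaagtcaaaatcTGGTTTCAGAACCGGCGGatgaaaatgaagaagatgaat
Hoxc9: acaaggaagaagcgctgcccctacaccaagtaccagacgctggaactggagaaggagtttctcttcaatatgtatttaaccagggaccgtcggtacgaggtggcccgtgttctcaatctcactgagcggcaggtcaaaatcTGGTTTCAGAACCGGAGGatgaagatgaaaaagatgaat

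Both sequences matched at 151 of 180 bases, and their longest identical stretch was 24 bases. Over all members, pairs with the same number had a median homeobox identity of 80.56% (42 pairs, 67.22% to 93.89%). Pairs from the same cluster with different numbers had a median of 61.67% (172 pairs), close to the 60.56% of pairs that shared neither (527 pairs). Homeobox sequence was therefore shared along the number and not along the cluster, whereas the levels described below followed the cluster in several cell types.

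The 6 libraries held 5871 to 13727 barcodes and 20845972 to 101441907 unique molecular identifiers (UMIs, each standing for 1 captured RNA molecule), the ganglion library the fewest of both. After filtering, 5355 to 12901 cells remained, with a median of 3331 to 7685.5 UMIs per cell in nerve and 1977 in the ganglion. Pairs of libraries shared 10 to 40 barcodes. The ganglion's median mitochondrial share was 0.0625%, and it was treated as nuclei, as the design text has it, although its title reads as cells. At P0, 24.9% of cells stayed unnamed, in a cluster of shallow cells. Cells led by replication genes were kept apart from these and from the 6 classes below. They numbered 1289 at P0, 191 at P7 and 53 at P14. At most 0.580% stayed unnamed at the other nerve ages. UMIs were summed for each cell type and library and scaled to the same total in every sum (the usual CPM), which are not divided by gene length, so that a gene or a cluster sum is compared across cell types and not with another gene.

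Clusters of cells were named by marker lists, without Hox genes, and each name means only "like" that cell type. Schwann-lineage cells numbered 4030, 7814, 999, 1910 and 1099 from P0 to P60, and mesenchymal cells (the fibroblast-like cells of the nerve) 615, 1397, 205, 3360 and 2224. Perineurial cells, which form the sheath around nerve fascicles, numbered 484, 2156, 5896 and 930 from P7 on, with 2 at P0 that were not used. Endothelial cells numbered 261, 69, 3396, 570 and 528. Mural cells, the pericytes and smooth muscle of vessels, numbered 207 to 594, and macrophages 238 to 1775. In each of these 6 classes all markers of its own list were above 10 CPM in every nerve library. In perineurial cells the mesenchymal list also summed to 20690 to 54962 CPM against 2297 to 5984 CPM for the perineurial list. A Schwann cluster of 2170 cells, led by Epha5, Ptprz1 and C1ql3, had no marker of the Schwann list among its 10 leading genes and 1 of the satellite glia list.

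Macrophages, which arise from blood and yolk sac precursors, were taken as a comparison level for free RNA because they had the lowest Hox sums in nerve, so that the other classes lie above them by this choice. Their 39 Hox genes summed to 36.8, 56.3, 45.0, 34.7 and 23.6 CPM from P0 to P60. In the same libraries Schwann cells summed to 251, 93.9, 135, 111 and 140 CPM, mesenchymal cells to 291 to 415, perineurial cells to 424 to 516, mural cells to 443 to 577 and endothelial cells to 584 to 758. Of the members, only Hoxb4 was detected in macrophages at both P0 and P60, where detected means at least 10 UMIs and 5 CPM in the sum. Whether the Hoxb4 UMIs of macrophages were free RNA or their own was not tested.

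Depth per cell sets how often a Hox UMI is seen, so each cell with at least 1000 UMIs was also thinned to 1000 UMIs. Cells with fewer count in the shares before thinning but not in those after it. The share of cells with any Hox UMI was then 33.5% to 52.9% in endothelial cells, 37.0% to 42.0% in perineurial cells, 33.0% to 46.0% in mural cells and 25.4% to 38.2% in mesenchymal cells over the nerve libraries. Schwann cells had 9.70% to 22.6% after thinning (21.5% to 76.4% before it), and macrophages 2.56% to 4.41% (7.84% to 21.01% before it). The thinned ranges of Schwann cells and macrophages did not overlap.

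The balance of the 4 clusters differed between endothelial cells, Schwann cells and the other classes, while mesenchymal, perineurial and mural cells shared high HoxA and HoxC. Endothelial cells carried HoxA (166 to 226 CPM), HoxB (232 to 337 CPM) and HoxD (138 to 259 CPM) and little HoxC (4.71 to 32.6 CPM). Mesenchymal cells carried HoxA (98.96 to 151 CPM) and HoxC (183 to 262 CPM), with HoxB at 6.03 to 16.9 CPM and HoxD at 1.37 to 5.58 CPM. Perineurial cells had the same order, with HoxC at 311 to 389 CPM, HoxA at 102 to 124 CPM, HoxB at 7.40 to 12.9 CPM and HoxD at 0.494 to 6.95 CPM. Mural cells added some HoxB (33.3 to 62.1 CPM) to HoxA (168 to 224 CPM) and HoxC (199 to 309 CPM). In Schwann cells, HoxB was the largest sum at P0, P7 and P14 (108, 39.7 and 62.6 CPM), and HoxC the larger at P28 and P60 (44.5 and 59.4 CPM against 35.4 and 51.0 CPM of HoxB). HoxD held at 20.6 to 40.2 CPM in Schwann cells, above the HoxD range of the mesenchymal, perineurial and mural cells.

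**Figure D1:**
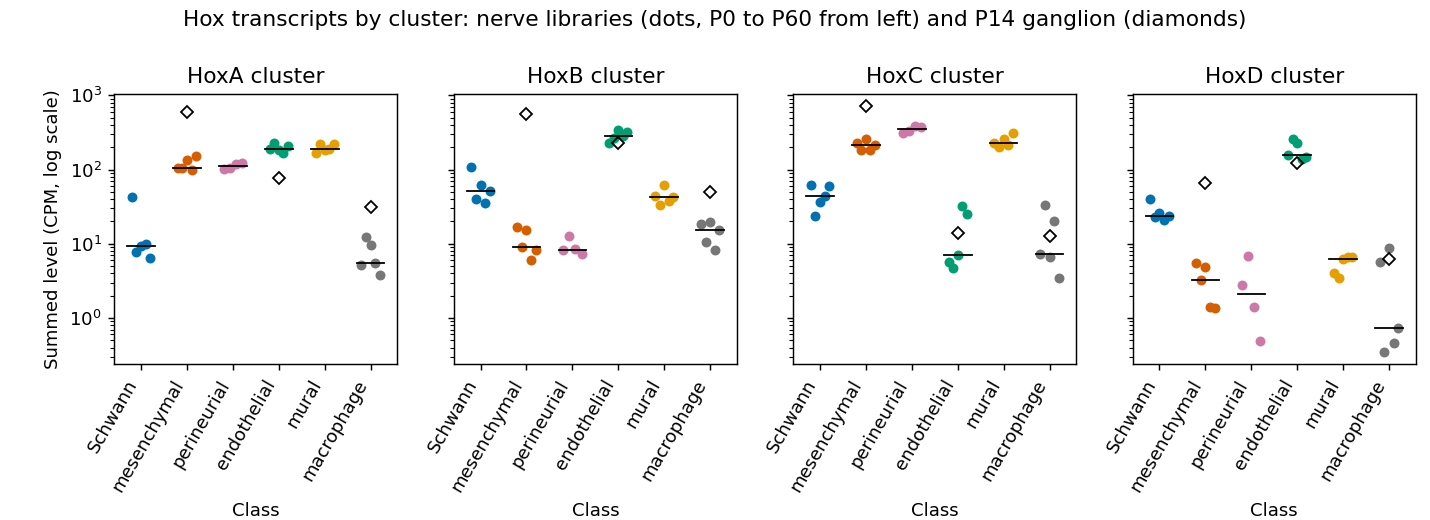
Summed level of the HoxA, HoxB, HoxC and HoxD genes (vertical axis, CPM on a log scale, 1 panel per cluster) in each cell type (horizontal axis); dots are the nerve libraries from P0 on the left to P60 on the right, the bar is their median, and diamonds are the P14 ganglion. Endothelial dots are high for HoxA, HoxB and HoxD and low for HoxC (4.71 to 32.6 CPM), while mesenchymal, perineurial and mural dots are high for HoxA and HoxC and have HoxD at or below 6.95 CPM.

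The endothelial HoxC sum was not constant. It was 32.6 CPM at P28 and 25.3 CPM at P60, where macrophages had 20.4 and 3.49 CPM. At P7 it was 4.71 CPM, below the 33.1 CPM of macrophages, and the medians over the nerve libraries were 6.99 and 7.26 CPM. Hoxc6, Hoxc9 and Hoxc10 themselves passed detection in macrophages at P7, with 15, 16 and 34 UMIs (5.27, 5.63 and 12.0 CPM). Whether free RNA had a part in the endothelial HoxC sum was not tested.

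The mean paralogue number, weighted by UMIs, sums up the numbers of the genes used in 1 value. It was 7.96 to 8.28 in mesenchymal cells, 7.39 to 7.93 in perineurial cells, 7.36 to 8.27 in mural cells and 6.42 to 6.96 in endothelial cells. Schwann cells had 6.95 at P0 and 5.71 to 6.29 later. Genes numbered 9 to 13 made up 54.8% to 60.7% of the Hox UMIs of mesenchymal cells, 38.98% to 50.8% of those of perineurial cells, 43.1% to 64.2% of those of mural cells and 22.2% to 31.2% of those of endothelial cells. In Schwann cells this share was 32.6% at P0 and 13.5% to 17.6% from P7 on. The levels behind these values are not divided by gene length, so they compare cell types over the same genes and not the genes with each other. The mean and the share also depend on which clusters a cell type uses, since HoxB has no member between Hoxb9 and Hoxb13.

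**Figure D2:**
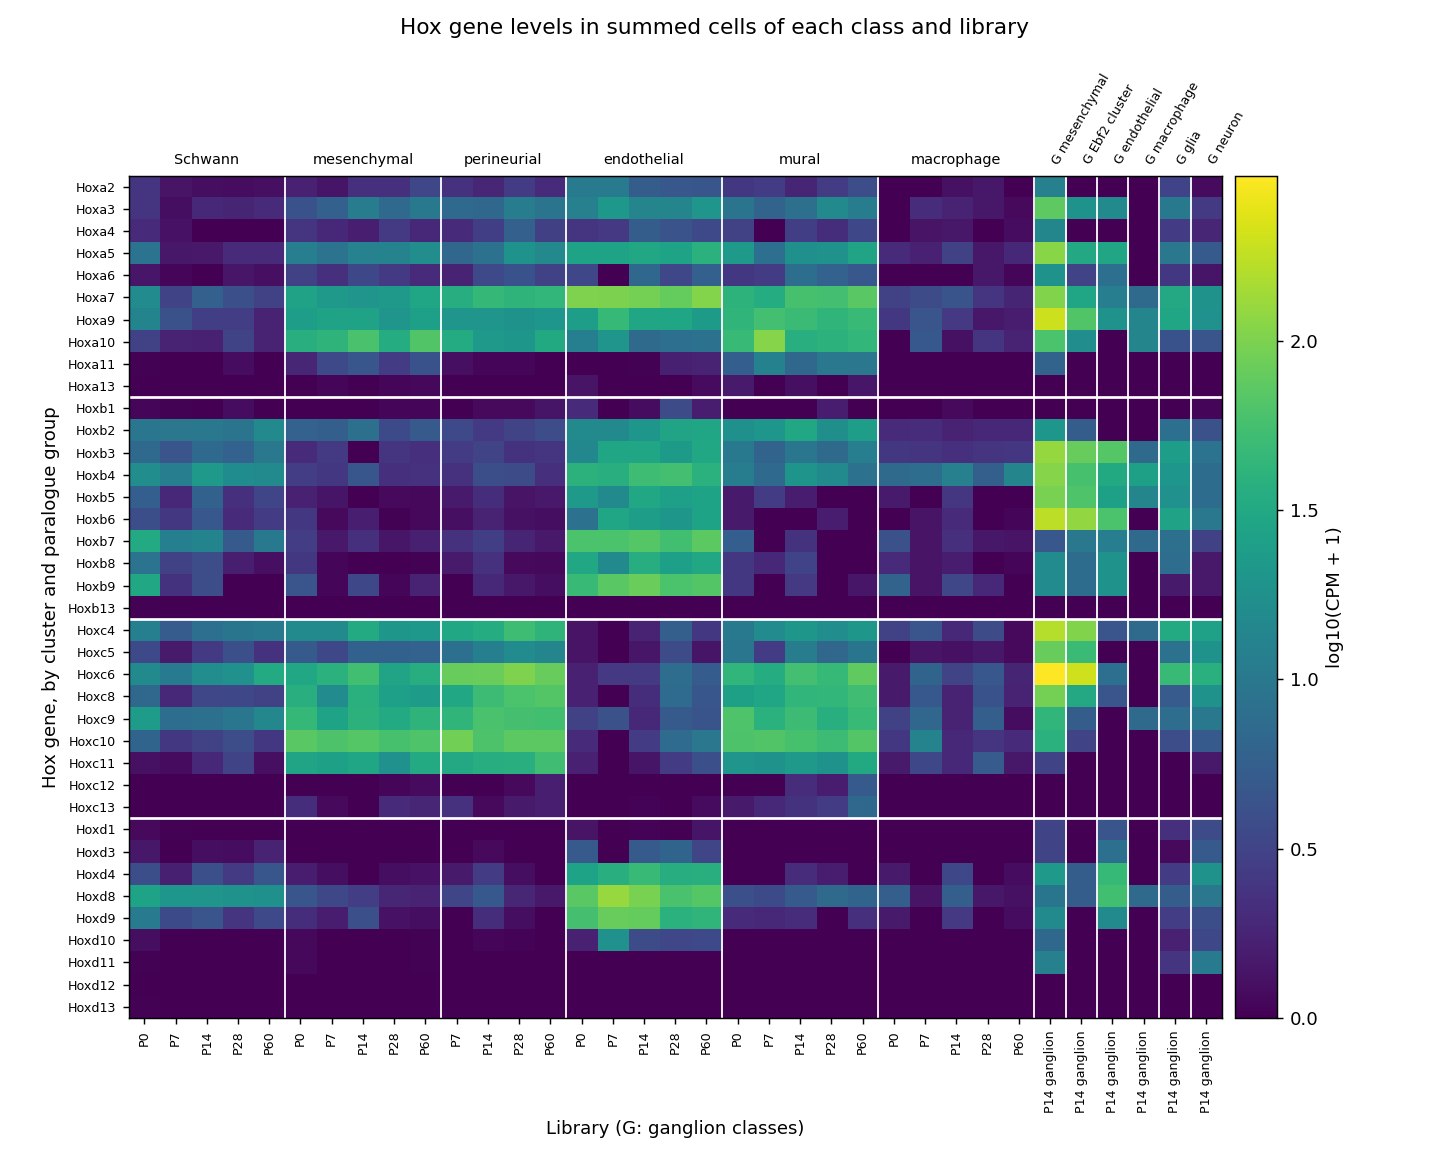
Level of 38 of the 39 Hox genes (vertical axis, by cluster and number) in each cell type and library (horizontal axis; G marks the ganglion), coloured by log10 of CPM + 1. HoxB and HoxD genes are bright in the endothelial columns, HoxC genes in the mesenchymal, perineurial and mural columns, and genes of groups 12 and 13 stay dark in nearly all columns.

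The first comparison asked how the Hox genes of mesenchymal cells differ from those of the Schwann lineage within the same nerves. Sums of both classes from the 5 libraries were compared with edgeR's quasi-likelihood test, with the library as a block and Benjamini-Hochberg adjustment over all 15898 genes tested. The fit also held sums of other nerve classes, among them the endothelial and perineurial cells compared below. Because the 5 libraries are 5 ages, the error reflects the spread of class differences across ages. That error is pooled over all classes in the fit and is not the spread of the mesenchymal and Schwann difference alone. Of 39 members 28 passed the filter on low counts, and since a member present in 1 class could pass through that class, counts over the tested members are a description. HoxA and HoxC genes were higher in mesenchymal cells, 9 of 10 tested and 7 of 7 tested. HoxB and HoxD genes were lower, 7 of 8 and 3 of 3. In all, 16 members were higher, beside 25.9% of all genes tested, and 10 were lower, beside 21.7%. The members' median log2 difference was 1.47, against 0.02 over all genes tested, and by cluster it was 2.73 (HoxA), -2.55 (HoxB), 1.88 (HoxC) and -2.38 (HoxD).

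The posterior HoxC and HoxA genes differed most. Hoxc10, which patterns lumbar motor neurons and the hindlimb, was at 70.5, 61.5, 67.6, 57.4 and 61.9 CPM in mesenchymal cells from P0 to P60 and at 5.36, 1.51, 2.13, 2.86 and 1.54 CPM in Schwann cells. Every mesenchymal library was far above every Schwann library. The log2 difference was 4.69 (SE 0.53, adjusted p = 1.6e-07). Hoxc11, a gene of hindlimb and sacral levels, was at 27.5, 24.9, 28.6, 17.2 and 31.8 CPM against 0.287, 0.175, 0.946, 2.25 and 0.256 CPM (log2 difference 5.78, SE 0.56, adjusted p = 1.96e-08). Macrophages had 0.436 to 4.16 CPM of Hoxc11, and no Schwann value was above the highest of these. Hoxa10, needed for lumbar vertebral identity and the hindlimb, was at 36.3, 40.4, 57.9, 33.8 and 64.4 CPM against 0.709 to 2.25 CPM (log2 difference 5.32, SE 0.43, adjusted p = 1.91e-09). Hoxa11, which acts in the middle limb segment and the kidney, was the lowest of these in level, at 0.837 to 3.65 CPM against 0 to 0.204 CPM, with a log2 difference of 5.68 (SE 0.70, adjusted p = 1.51e-06). For all 4 genes every library had the mesenchymal value higher and the ranges did not overlap.

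The middle HoxC genes were shared more evenly between both classes. Hoxc6, a marker of brachial levels in motor neurons, was at 29.7, 38.0, 53.0, 27.5 and 34.6 CPM in mesenchymal cells and at 14.4, 9.28, 15.6, 17.2 and 32.0 CPM in Schwann cells (log2 difference 1.27, adjusted p = 0.00274), and the ranges overlapped. Hoxc9, which sets thoracic motor columns, was at 44.2, 26.5, 38.4, 32.5 and 40.2 CPM against 22.0, 6.95, 7.33, 8.58 and 13.1 CPM (log2 difference 1.88, adjusted p = 0.000329). Hoxc8, a gene of the brachial to thoracic boundary, was at 36.0, 14.7, 37.2, 24.1 and 22.5 CPM against 5.81, 0.931, 2.36, 2.45 and 2.05 CPM (log2 difference 3.40, SE 0.45, adjusted p = 1.58e-06). Only for Hoxc6 among these 3 did a Schwann library, P60, exceed a mesenchymal one. Hoxc4 (14.5 to 32.3 CPM against 4.28 to 10.9 CPM) and Hoxc5 (2.46 to 5.11 CPM against 0.524 to 3.07 CPM) had log2 differences of 1.47 and 1.52.

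The HoxA genes of the middle groups followed the same direction at lower levels. Hoxa7, a gene of thoracic identity, was at 26.1, 21, 18.9, 21.02 and 28.8 CPM in mesenchymal cells and at 14.9, 2.24, 4.73, 3.07 and 2.05 CPM in Schwann cells (log2 difference 2.38, adjusted p = 1.2e-05). Hoxa5, which acts in the lung, the trunk skeleton and phrenic motor neurons, was at 10.6, 7.77, 11.6, 11.8 and 15.6 CPM against 7.82, 0.436, 0.473, 1.02 and 1.02 CPM (log2 difference 2.75, adjusted p = 5.01e-05). The P0 Schwann library stood above the later ones for both genes. Hoxa3, which is needed for the thymus and parathyroid, was at 3.21 to 10.4 CPM against 0.247 to 1.40 CPM (log2 difference 3.02, adjusted p = 2.85e-06). Hoxa2, a gene of the hindbrain and second arch, was not called (adjusted p = 0.0774). Hoxa4, at or below 1.62 CPM in mesenchymal cells, was higher there (log2 difference 1.54, adjusted p = 0.0304) but lost its call without P7, without P28 or without P60 (adjusted p = 0.0681 to 0.109).

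Genes higher in the Schwann lineage came from HoxB and HoxD. Hoxb4, which acts at cervical levels and in blood stem cells, was at 15.5, 10.5, 20.8, 15.1 and 14.3 CPM in Schwann cells and at 1.81, 1.51, 3.65, 1.24 and 1.28 CPM in mesenchymal cells (log2 difference -3.01, SE 0.27, adjusted p = 5.65e-09). Macrophages had 6.23, 6.68, 11.2, 4.63 and 12.6 CPM of Hoxb4, more than the mesenchymal cells in each library. Hoxd8 was at 26.9, 19.3, 18.9, 17.4 and 16.6 CPM against 3.63, 2.46, 1.83, 0.850 and 0.730 CPM (log2 difference -3.36, SE 0.45, adjusted p = 1.71e-06). Hoxb7 was at 32.0, 11.0, 12.3, 4.09 and 9.22 CPM against 1.81, 0.475, 1.22, 0.425 and 0.638 CPM (log2 difference -3.75, SE 0.42, adjusted p = 1.35e-07). For these 3 genes the ranges of both classes were apart. Hoxb9 was not called (log2 difference -1.86, adjusted p = 0.0651): its Schwann values were 30.0, 1.32, 2.84, 0 and 0 CPM, and P0 alone was above all mesenchymal values. Over all called members, the ranges of both classes were apart for 11 of the 16 higher and 7 of the 10 lower.

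**Figure D3:**
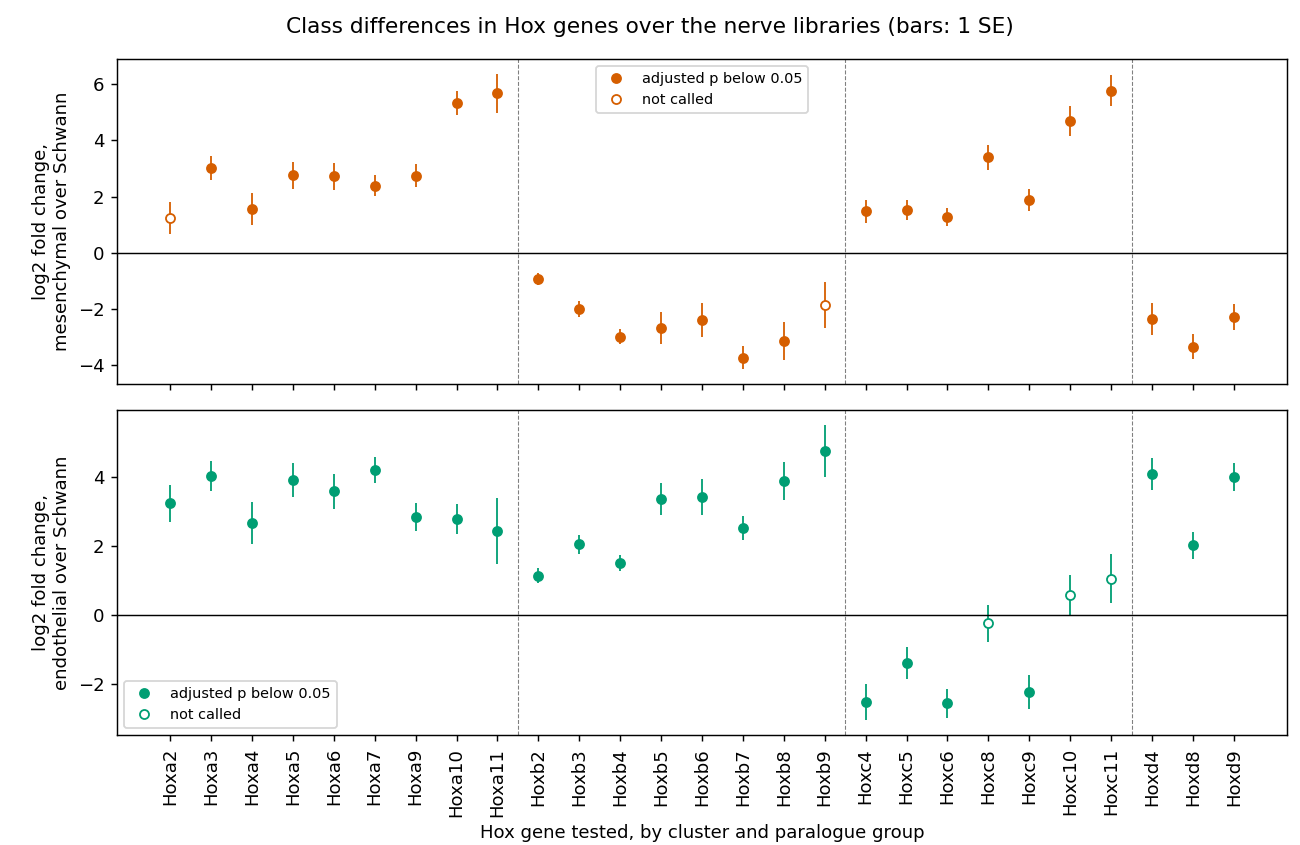
Log2 difference with its standard error (vertical axis) for 27 of the 28 Hox genes tested (horizontal axis) in the edgeR comparisons of mesenchymal (upper panel) and endothelial cells (lower panel) with Schwann-lineage cells; filled points were called and open points were not. HoxA points lie above 0 in both panels, HoxB and HoxD points lie below 0 in the mesenchymal panel and above it in the endothelial panel, and HoxC points lie above 0 in the mesenchymal panel, whereas 5 of 7 lie below 0 in the endothelial panel.

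The second comparison set endothelial cells against the Schwann lineage in the same fit. Every tested HoxA, HoxB and HoxD gene was called higher in endothelial cells (10 of 10, 8 of 8 and 3 of 3), and 4 of 7 HoxC genes were called lower. These 21 higher members stand beside 26.3% of all genes called higher, and the 4 lower members beside 24.1%. The members' median log2 difference was 2.60, against 0.04 over all genes tested. Both comparisons use the same Schwann sums, so their values are given side by side and not related to each other.

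Hoxa7 and the group 9 genes Hoxb9 and Hoxd9 were among the 5 members with the largest log2 differences, with Hoxd4 and Hoxa3. Hoxa7 was at 101, 98.98, 91.9, 79.0 and 105 CPM in endothelial cells, against the Schwann values given above (log2 difference 4.21, SE 0.39, adjusted p = 5.82e-09). Hoxb9, a gene of thoracic and limb levels, was at 46.3, 70.7, 82.5, 59.2 and 65.5 CPM (log2 difference 4.77, SE 0.75, adjusted p = 1.36e-05). Hoxd9, which acts with its group 9 paralogues in limb and motor neuron patterning, was at 55.4, 80.1, 78.6, 37.7 and 41.4 CPM, against 9.48, 2.63, 3.55, 1.43 and 2.56 CPM in Schwann cells (log2 difference 4.01, SE 0.41, adjusted p = 2.66e-08). The lowest endothelial library was above the highest Schwann library for all 3 genes.

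Other HoxD and HoxB genes moved the same way. Hoxd8 was at 69.3, 126, 96.8, 57.9 and 66.9 CPM (log2 difference 2.04, adjusted p = 0.000134), Hoxd4 at 26.7, 36.1, 47.5, 34.3 and 36.1 CPM against 0.669 to 3.59 CPM in Schwann cells (4.10, SE 0.47, adjusted p = 1.53e-07). Hoxb7 was at 59.5, 59.7, 67.2, 53.5 and 72.3 CPM (2.53, adjusted p = 2.28e-06) and Hoxb4 at 38.9, 36.1, 50.9, 54.2 and 37.7 CPM (1.52, adjusted p = 8.79e-06). Hoxb3, Hoxb5 and Hoxb6 were at 13.5 to 30.1, 14.1 to 30.2 and 7.43 to 28.3 CPM, against 3.58 to 8.96, 0.916 to 4.96 and 1.02 to 3.78 CPM. At P7 the class rests on 69 cells, and Hoxb3 and Hoxb6 had 18 UMIs each there and Hoxb5 9 UMIs, under the detection minimum of 10. Hoxa5 was at 27.0, 26.7, 29.4, 26.9 and 38.1 CPM, and Hoxa3 at 11.2, 20.4, 12.6, 12.4 and 18.9 CPM.

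The HoxC genes that were lower in endothelial cells were Hoxc4 (log2 difference -2.51), Hoxc5 (-1.38), Hoxc6 (-2.56) and Hoxc9 (-2.22). Hoxc6 was at 0.676, 1.57, 1.65, 6.73 and 4.25 CPM and Hoxc9 at 2.03, 3.14, 0.945, 4.04 and 3.48 CPM, in the range of the macrophages (0.519 to 5.27 and 0.218 to 5.63 CPM), apart from Hoxc6 at P28. Hoxc8, Hoxc10 and Hoxc11 were not called, with log2 differences of -0.24, 0.58 and 1.06. The ranges of both classes were apart for 19 of the 21 higher and 2 of the 4 lower members. Hoxc5 lost its call without P0, P14 or P60 (adjusted p = 0.0532 to 0.138) and Hoxa11 without P7, P28 or P60 (0.0844 to 0.326). Hoxa11 had only 0, 0, 1, 2 and 4 UMIs in endothelial cells from P0 to P60. At P0 and P7 its Schwann value was the higher, at 0.0319 and 0.0145 CPM against 0.

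In the nerve libraries, outside the Schwann lineage, Hoxc9 lay in other cells than Hoxb9 and Hoxd9, and Hoxa9 in all of them. Hoxb9 and Hoxd9 were at 37.7 CPM or more in nerve endothelial cells and at or below 3.49 CPM in every mesenchymal, perineurial and mural sum of nerve. Hoxc9 was at 26.5 to 62.4 CPM in the mesenchymal, perineurial and mural cells and at or below 4.04 CPM in endothelial cells. Hoxa9 was at 18.7 to 26.4 CPM in mesenchymal, 17.5 to 19.2 CPM in perineurial, 21.6 to 45.6 CPM in endothelial and 41.0 to 54.4 CPM in mural cells. In Schwann cells at P0 all 4 paralogues were detected together, with Hoxa9 at 12.4, Hoxb9 at 30.0, Hoxc9 at 22.0 and Hoxd9 at 9.48 CPM. The split was not seen in ganglion mesenchymal cells, with Hoxb9 at 14.99, Hoxd9 at 14.2 and Hoxc9 at 42.0 CPM. Ganglion endothelial cells had Hoxb9 at 17.7 and Hoxd9 at 14.1 CPM.

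Mural cells were not tested against another class, and their values are a description. Hoxa10 was at 46.8, 108.7, 35.6, 38.7 and 43.2 CPM, the P7 library above the others. Hoxc10 was at 60.9, 64.0, 57.3, 49.4 and 65.4 CPM, and Hoxc6 at 42.3, 33.3, 55.1, 44.9 and 74.8 CPM. Hoxa11 reached its highest levels of the data set there, at 4.53 to 11.4 CPM. Hoxc12 and Hoxc13, the latter known for its role in hair and nails, also peaked in mural cells at P60, at 4.11 and 5.76 CPM, and were at or below 1.27 CPM in the mesenchymal, perineurial, endothelial and Schwann sums.

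The remaining members were weak. Of the 19 genes that did not reach 50 CPM in any class sum, 16 stayed under 20 CPM, 10 under 10 CPM and 7 under 5 CPM in all 35 sums. Hoxd4 was the highest of them. Hoxb2, a hindbrain gene, was at 14.1 to 28.02 CPM in endothelial, 16.3 to 29.7 CPM in mural and 7.97 to 14.1 CPM in Schwann cells of nerve. Hoxb8 was at 14.1 to 34.8 CPM in nerve endothelial cells and at or below 7.85 CPM in the other 4 nerve classes named here. In ganglion mesenchymal cells it was at 14.99 CPM. The most posterior genes were nearly absent: over all sums Hoxd12 had 0 UMIs, Hoxb13 and Hoxd13 had 1 UMI each, and Hoxa13 had 11. Hoxd10, a lumbar and hindlimb gene, was at 0.676 to 17.3 CPM in nerve endothelial cells, the highest value at P7. Hoxd11 was at or below 0.140 CPM in every nerve sum.

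Perineurial and mesenchymal cells were then compared in the same fit. Both classes were present in 4 libraries, and the P0 mesenchymal sum was also in the fit. Only 5 of 28 tested members were called. Hoxc5 was higher in perineurial cells (7.12, 10.8, 14.8 and 12.5 CPM against 2.46, 4.87, 4.98 and 5.11 CPM from P7 to P60, log2 difference 1.28, SE 0.34, adjusted p = 0.00777), and so was Hoxc6 (80.4, 82.8, 99.9 and 80.2 CPM against 38.0, 53.0, 27.5 and 34.6 CPM, log2 difference 1.01, SE 0.34, adjusted p = 0.0328). These 2 higher members stand beside 11.8% of all genes, and the 3 lower ones beside 13.2%. The lower ones were Hoxa11 (0 to 0.254 CPM against 0.837 to 3.65 CPM at all ages, log2 difference -4.71, SE 0.69, adjusted p = 7.66e-05), Hoxb2 (-1.13, SE 0.26, adjusted p = 0.00205) and Hoxa10 (32.8, 21.1, 19.5 and 31.6 CPM against 40.4, 57.9, 33.8 and 64.4 CPM, -0.999, adjusted p = 0.0443). The members' shares were near the background shares in both directions. The Hoxa11 call alone held under every alternative. Hoxc6 lost its call without P14 or P28 (adjusted p = 0.0855 and 0.165), and Hoxa10 without P14, P28 or P60 (0.184, 0.168 and 0.165). With no library block neither Hoxc5 (0.0691) nor Hoxc6 (0.056) was called.

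A pair of sub-types of mesenchymal cells was compared in the P7, P28 and P60 libraries: those named by endoneurial markers, inside the fascicles, and those named by epineurial markers, outside them. The endoneurial sub-clusters had no marker of their own list among their 10 leading genes and 1 marker of another list each (Col2a1, Gfra2 or Spp1). Of 21 members tested 16 were not called. Hoxa9 (23.9, 13.4 and 18.002 CPM against 41.2, 44.7 and 35.4 CPM, log2 difference -1.19, adjusted p = 0.0191), Hoxa10 (37.1, 21.8 and 31.9 CPM against 64.6, 90.9 and 122 CPM, -1.64, SE 0.27, adjusted p = 0.018), Hoxc11 (-0.97, adjusted p = 0.0266) and Hoxc6 (-0.89, adjusted p = 0.0248) were lower in endoneurial cells. These 4 stand beside 7.72% of all genes. Hoxb2 alone was higher (5.23, 2.71 and 5.63 CPM against 0.615, 1.39 and 1.43 CPM, 1.78, SE 0.44, adjusted p = 0.0491), beside 6.45% of all genes. Ranges were apart for all 5. The 5 calls were fragile: without the P28 library 0 members were called higher and 0 lower, Hoxa10 and Hoxc11 were also lost without P60 (adjusted p = 0.0803 and 0.0968), and Hoxb2 was lost without any 1 of the 3. With no library block 1 member was called lower and 0 higher.

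Within the Schwann lineage, non-myelinating cells (nmSC, which hold Remak bundles) were compared with myelinating cells (mSC) in the 4 libraries from P7 on. Only 8 members passed the filter, so the comparison covers few genes. Of the nmSC sub-clusters, 2 (1483 and 775 cells) had no nmSC marker among their 10 leading genes, the first with 1 marker of the NP3 neuron list (Osmr), and 2 mSC sub-clusters (749 and 1728 cells) had no mSC marker there. Hoxc9 was higher in nmSC (25.1, 8.92, 11.4 and 15.5 CPM against 4.51, 5.25, 4.24 and 1.52 CPM, log2 difference 1.71, adjusted p = 0.00302), as were Hoxb7 (23.2, 17.4, 6.38 and 10.8 CPM against 9.35, 4.08, 0.530 and 1.52 CPM, 1.44, adjusted p = 0.00583), Hoxc4 (10.7, 11.0, 9.73 and 10.8 CPM against 3.42, 1.75, 5.83 and 1.52 CPM, 1.36, adjusted p = 0.00873) and Hoxc6 (17.6, 19.5, 19.8 and 36.2 CPM against 8.18, 9.92, 13.2 and 9.11 CPM, 0.80, adjusted p = 0.0176). In each of the 4 libraries each of these 4 genes had the greater value in nmSC. Some of the mSC values rest on very few UMIs. Those of Hoxc9, Hoxb7 and Hoxc4 at P60 (139 mSC) and of Hoxb7 at P28 (539 mSC) came from 1 UMI each. The counting intervals of nmSC and mSC overlapped in some libraries, such as for Hoxc9 at P14 and Hoxc4 at P60. With no library block Hoxb7 was not called (adjusted p = 0.278). These 4 of 8 stand beside 16.5% of all genes. By edgeR 0 members were lower, and 0 at an unadjusted p under 0.05 or by DESeq2, beside 17.8% of all genes, and Hoxb2, Hoxb3, Hoxb4 and Hoxd8 were not called. The sum of all members was 178, 158, 128 and 154 CPM in nmSC and 82.8, 99.2, 83.2 and 68.3 CPM in mSC.

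The persistence of the code was read from P0 and P60, as values of 1 library each with intervals that cover counting error only. The ratio of the summed Hox level of P60 over P0 was 1.06 in mesenchymal cells (95% interval 1.02 to 1.11), 1.20 in endothelial cells (1.13 to 1.27) and 1.30 in mural cells (1.20 to 1.42). For perineurial cells the ratio of P60 over P7 was 1.20 (1.13 to 1.27). Members detected at P0 were mostly detected at P60 too: 10 of 11 in mesenchymal, 16 of 17 in endothelial and 15 of 15 in mural cells, and 12 of 12 perineurial members from P7. The 10 mesenchymal genes were Hoxa5, Hoxa7, Hoxa9, Hoxa10, Hoxc4, Hoxc6, Hoxc8, Hoxc9, Hoxc10 and Hoxc11. Detection in all libraries held for 10 mesenchymal, 12 perineurial, 13 endothelial, 10 mural and 5 Schwann members, and for 0 in macrophages.

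The Schwann lineage had the lowest ratio of these classes. Its ratio of P60 over P0 was 0.558 (0.511 to 0.609), and 8 of the 16 members detected at P0 were detected at P60: Hoxb2, Hoxb3, Hoxb4, Hoxb7, Hoxc4, Hoxc6, Hoxc9 and Hoxd8. The others were Hoxa5, Hoxa7, Hoxa9, Hoxb8, Hoxb9, Hoxc8, Hoxc10 and Hoxd9. By cluster the ratio was 0.151 for HoxA (0.0976 to 0.224), 0.474 for HoxB (0.409 to 0.547), 0.586 for HoxD (0.469 to 0.724) and 0.968 for HoxC (0.841 to 1.11), so the HoxC interval alone included no change. Hoxc6 had a ratio of 2.22 (1.81 to 2.71) and Hoxb2 of 1.67 (1.22 to 2.23). The cells also differed in kind: 3735 of 4030 Schwann cells at P0 were named immature and 956 of 1099 at P60 nmSC. The mesenchymal marker list summed to 11206 CPM in Schwann cells at P0 and to 4261 CPM at P60, with none of its 9 genes at 0, and its part in the Hox values was not tested.

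**Figure D4:**
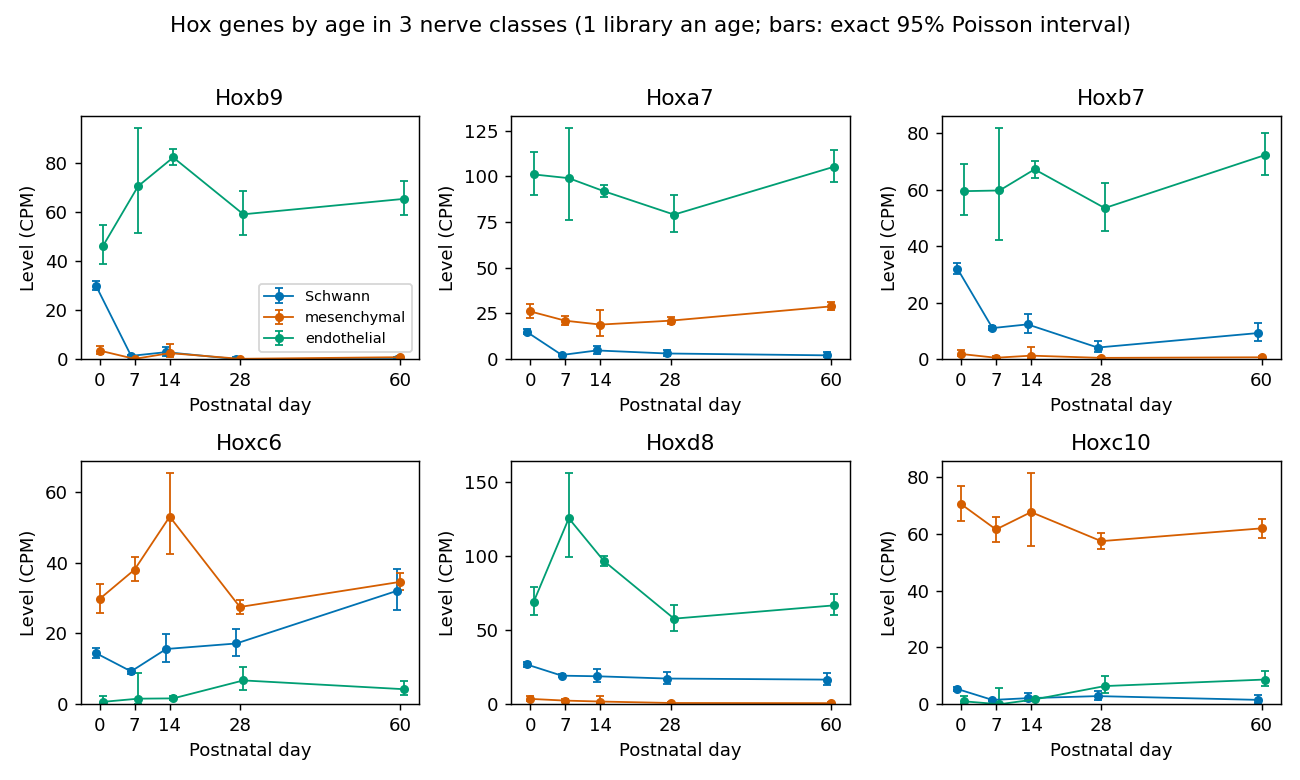
Level (vertical axis, CPM) of Hoxb9, Hoxa7, Hoxb7, Hoxc6, Hoxd8 and Hoxc10 by postnatal day (horizontal axis) in Schwann, mesenchymal and endothelial cells, 1 library per point, with exact 95% Poisson intervals. The Schwann values of Hoxa7, Hoxb7 and Hoxb9 are highest at P0, whereas the endothelial values of these genes stay between 46.3 and 105 CPM at all 5 ages.

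Hoxb9 was at 30.0 CPM in the Schwann lineage at P0 and at 0 at P28 and P60. At P0 it was at 32.8 CPM in immature cells and 11.9 CPM in mSC. Hoxb9 was at 54.99 CPM in the P0 cells led by replication genes, which are not among the Schwann cells and whose cell type was not named. At P7 it was at 6.81 CPM in nmSC and 0.609 CPM in mSC, at P14 at 4.06 and 1.17 CPM, and at P28 and P60 it was at 0 in both. Endothelial cells of the same P28 and P60 libraries had 59.2 and 65.5 CPM. After thinning, 3.13% of Schwann cells at P0 and 0 of 1002 at P60 (up to 0.367%, exact binomial interval) had a Hoxb9 UMI, while macrophages had 0.441% at P0.

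At P14 the nerve could be set beside the ganglion, where the cell bodies of the sensory axons lie. The libraries differ in tissue, in preparation (cells and nuclei) and in counting software, and these cannot be told apart. Mesenchymal cells of the ganglion had a Hox sum of 1932 CPM, 4.65 times the 415 CPM of nerve at the same age (95% interval 4.27 to 5.07). HoxB had the highest ratio, 36.4 (24.5 to 56.6), then HoxD with 13.4, HoxA with 4.42 and HoxC with 2.76. Hoxb3 was at 0 CPM in nerve (up to 1.83, from the 3 UMIs that a count of 0 allows) and at 124 CPM in the ganglion (105 to 144), and in the other nerve libraries mesenchymal Hoxb3 was at 0.977 to 1.66 CPM. Hoxb6 was at 0.609 against 173 CPM, Hoxb5 at 0 against 95.9 CPM and Hoxb4 at 3.65 against 109 CPM. Hoxb3 to Hoxb6, at or below 3.65 CPM in nerve mesenchyme, were thus at 95.9 to 173 CPM in ganglion mesenchyme.

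The 16 genes of groups 9 to 13 went both ways. Hoxa9 was at 26.2 CPM in nerve and 196 CPM in ganglion mesenchyme, Hoxb9 at 2.44 and 14.99 CPM, Hoxd9 at 3.05 and 14.2 CPM, Hoxd10 at 0 and 5.99 CPM and Hoxd11 at 0 and 11.2 CPM. For these 5 genes the ganglion interval lay above the nerve interval. Those of Hoxa10, Hoxa11 and Hoxc9 overlapped: Hoxa10 was at 57.9 CPM (46.8 to 70.7) in nerve and 59.9 CPM (47.5 to 74.6) in the ganglion, Hoxa11 at 3.65 and 5.25 CPM and Hoxc9 at 38.4 and 42.0 CPM. Hoxc10 was at 67.6 CPM (55.6 to 81.4) in nerve and 38.2 CPM (28.5 to 50.2) in the ganglion, and Hoxc11 at 28.6 CPM (21.03 to 38.1) and 2.25 CPM (0.464 to 6.57). These 2 intervals did not overlap between tissues, with the nerve higher. The other 6 genes, of groups 12 and 13, had 0 UMIs in both. Of the lower groups, Hoxc6 was at 53.0 CPM (42.4 to 65.4) and 306 CPM (277 to 338) and Hoxa7 at 18.9 and 103 CPM. The mean paralogue number of ganglion mesenchyme was 6.01, and genes 9 to 13 made up 20.2% of its Hox UMIs. P7 nerve, counted with a later software version than the other nerve libraries, had Hoxb3 at 1.66 CPM in mesenchymal cells. That library also differs from the ganglion in tissue and preparation, and whether software had a part in the ganglion values was not tested.

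The ganglion mesenchymal class joined 3 clusters, led by Slc47a1 and Slc4a10 (123 nuclei), by Dkk2, Ccbe1 and Scara5 (224 nuclei) and by Ranbp3l, Ptgds and Slc6a20a (135 nuclei). None had a marker of the mesenchymal list among its 10 leading genes. Their Hox sums were 2550, 1786 and 1612 CPM and their HoxB sums 753, 446 and 532 CPM, so the high HoxB level was in all 3. A further cluster of 222 nuclei, led by Ebf2, Itgbl1 and Apod, had a Hox sum of 903 CPM with HoxB at 345 CPM and HoxC at 390 CPM. It took its name from perineurial markers, but the mesenchymal list was at 7271 CPM in it, above the 4791 CPM of the mesenchymal class, and it was not compared with nerve perineurial cells.

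**Figure D5:**
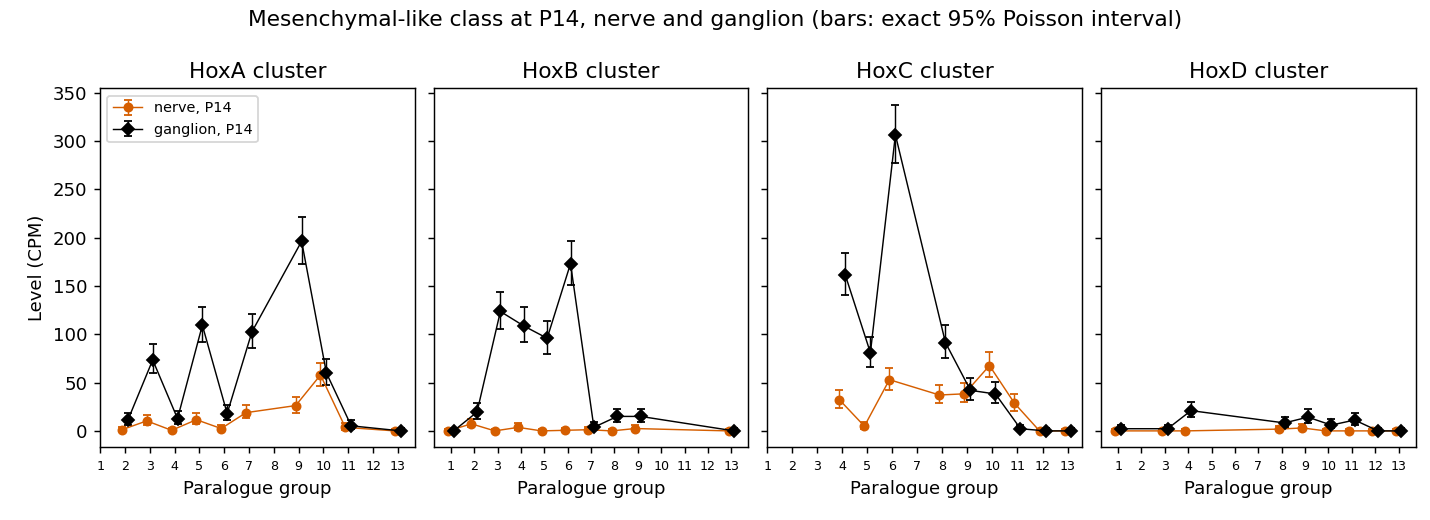
Level (vertical axis, CPM) of 38 of the 39 Hox genes by paralogue group (horizontal axis, 1 panel per cluster) in mesenchymal cells of the P14 nerve (circles) and the P14 ganglion (diamonds), with exact 95% Poisson intervals. Ganglion values of Hoxb3 to Hoxb6 are at 95.9 to 173 CPM where nerve values are at or below 3.65 CPM, Hoxa10 and Hoxc9 are close in both, and Hoxc10 and Hoxc11 are higher in nerve.

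Endothelial and glial cells gave other patterns. Ganglion endothelial cells (147 nuclei) had a Hox sum of 445 CPM against 758 CPM in nerve, a ratio of 0.587 (0.489 to 0.699), again with HoxC low (14.1 CPM) beside HoxB (230 CPM) and HoxD (124 CPM). Ganglion glia, satellite glia and Schwann cells together, had 307 CPM against 135 CPM in nerve Schwann cells, a ratio of 2.27 (2.07 to 2.499). The ratio was 9.14 for HoxA and 0.439 for HoxD. Hoxa7 was at 31.1 CPM in glia and 4.73 CPM in Schwann cells, Hoxa9 at 28.4 and 1.89 CPM, Hoxd8 at 4.39 and 18.9 CPM, and Hoxb4 at 19.4 and 20.8 CPM. Ganglion macrophages had 101 CPM, from 16 UMIs.

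The neurons of the ganglion (1323 nuclei) had a Hox sum of 241 CPM, of which HoxC was 111 CPM. Among the named neuron types the sum was 377 CPM in peptidergic neurons (PEP, 199 nuclei), 369 CPM in cold-sensing neurons (101 nuclei), 218 CPM in NP3 (195 nuclei) and 210 CPM in C-low-threshold mechanoreceptors (cLTMR, 168 nuclei). The non-peptidergic types NP1 (163 nuclei) and NP2 (51 nuclei) had 124 and 122 CPM. Both PEP clusters (168 and 31 nuclei) had no PEP marker among their 10 leading genes, and 84 of the NP3 nuclei came from a cluster with 1 NP3 marker and 1 Schwann lineage marker (Cdh19) there. Hoxc6 followed this order in part, at 71.2 CPM in PEP, 58.2 in cold, 42.3 in NP3, 21.8 in NP2, 16.1 in cLTMR and 14.8 in NP1. Hoxd11, a gene of sacral and limb levels that was nearly absent from nerve, was at 23.5 CPM in PEP and 11.2 CPM in cold neurons. Hoxb6 was at 26.0 CPM in cold neurons and 2.69 CPM in NP1, and Hoxb9 was at 0 in 5 of the 6 types. This is 1 library, so these differences have no test.

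The partners and surroundings of the Hox genes were read from 4 lists. Of 9 TALE cofactors, 5 were higher and 1 lower in mesenchymal than in Schwann cells by edgeR (median log2 difference 1.03), beside 25.9% and 21.7% of all genes. Meis2, a partner of Hox proteins in the limb, was at 45.9 against 5.23 CPM (log2 difference 3.28, SE 0.43, adjusted p = 1.46e-06). Pbx2 was lower (-0.29, adjusted p = 0.0253). In endothelial cells 2 of the 9 were higher than in Schwann cells, Meis2 (1.81, higher in 4 of 5 libraries, with overlapping ranges) and Pbx2 (0.43), and 4 lower, with a median of 0.14, beside 26.3% and 24.1% of all genes. Perineurial cells had 1 higher and 3 lower than mesenchymal cells, beside 11.8% and 13.2% of all genes. In nmSC 1 of the 7 tested, Pbx3, was higher than in mSC, beside 16.5% of all genes.

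Noncoding RNAs of the Hox clusters were read in the same fits. Of 18 such genes 8 were tested: 5 were higher and 2 lower in mesenchymal cells (median 1.57), and 5 were higher and 1 lower in endothelial cells (median 2.43), both against Schwann cells. The shares of all genes were 25.9% higher and 21.7% lower in mesenchymal cells and 26.3% and 24.1% in endothelial cells. Hoxd3os1, antisense in HoxD, was lower in mesenchymal (-3.14) and higher in endothelial cells (2.91). Hotairm1, at the anterior end of HoxA, had a log2 difference of 1.33 in mesenchymal and 2.44 in endothelial cells. Hoxb3os was at 44.2 CPM in Schwann cells, 3.07 CPM in mesenchymal cells (-3.70) and 18.8 CPM in endothelial cells (-1.22). Hoxaas3 was higher in endothelial cells (2.42), and it was at 0.867 to 2.65 CPM in nerve mesenchyme and 132 CPM in ganglion mesenchyme. Of the 39 members, 15 overlap another gene on the same strand, 11 of them another member, and 14 overlap an antisense gene in GENCODE M21. Whether counting used strand is not given in the sources used here, so reads in those overlaps may be split between genes.

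Limb and axial position factors and chromatin regulators were set beside the same shares of all genes. Of 20 limb and axial factors 9 were tested, and 7 were higher and 1 lower in mesenchymal than in Schwann cells (median 6.25). The shares of all genes there were 25.9% higher and 21.7% lower. Shox2, a gene of the proximal limb, was at 92.6 to 175 CPM in nerve mesenchyme (log2 difference 7.05, SE 0.75) and at 0 in ganglion mesenchyme, whereas Prrx1, a gene of limb bud mesenchyme, was at 123 to 329 CPM in nerve (6.61, SE 0.68) and 722 CPM in the ganglion. In endothelial cells 5 were higher and 1 lower, beside 26.3% and 24.1% of all genes. Of 17 chromatin regulators, 1 was higher and 6 lower in mesenchymal cells, beside 25.9% and 21.7% of all genes. In endothelial cells 6 of them were higher and 5 lower, beside 26.3% and 24.1% of all genes. The Polycomb genes Suz12 (0.85) and Jarid2 (0.98) and the Trithorax gene Kmt2a (0.35) were among those higher in endothelial cells.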

How the data were processed

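Droplet libraries were made from dissociated nerve and from ganglia. The authors deposited UMI counts per gene and barcode, made with Cell Ranger 5.0.1 (P0, P14, P28, P60), 7.0.0 (P7) and 7.1.0 (ganglion), per the file headers. The submitters' processing notes name Seurat and mm9. For introns and strand, the counting rule is not given in the sources used here. Members and lists were chosen with earlier results of these data known, and the naming scores after clusters were seen. Values by library are given for members reaching 50 CPM in a class sum, and of other lists at most 4 members with the highest mean level are named. Some named genes and sequences are not reported here.

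Barcodes with at least 300 genes, 500 UMIs and at most 20% mitochondrial UMIs (5% for nuclei) were kept. Doublets called by Scrublet were removed, or the top 8% of scores where it called under 0.5%. Cells were clustered in scanpy 1.11.5 (2000 variable genes without Hox and list genes, 30 components, 15 neighbours, Leiden resolution 1). Sums of at least 20 cells entered edgeR 4.0.16 quasi-likelihood fits with TMM and the library as block, and sums of at least 50 cells are given as levels. Calls are at an adjusted p of 0.05. The fits were tested on simulated data.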

Additional observations from a re-analysis of the deposited data

Results flagged for a closer look

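For 6 members the level at P60 over that at P0 lay below 1 in Schwann-lineage cells and above 1 in another class, with 95% counting intervals that exclude 1 in both. Each age is 1 library, and the difference between classes was not tested. At P0 the Schwann cells were mostly named immature and at P60 mostly nmSC.

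Hoxa5 had a ratio of 0.131 (0.0354 to 0.34) in Schwann cells, 1.47 (1.14 to 1.91) in mesenchymal cells and 1.41 (1.08 to 1.85) in endothelial cells. Hoxa7 had 0.137 (0.059 to 0.273) in Schwann cells and 1.75 (1.33 to 2.31) in mural cells. Hoxb7 had 0.288 (0.2 to 0.401) in Schwann cells and 1.22 (1.01 to 1.46) in endothelial cells. Hoxb9 had 939 UMIs in Schwann cells at P0 and 0 at P60, a level at least 39.01-fold lower and a ratio of at most 0.0256, both from the 3 UMIs that a count of 0 allows, and 1.41 (1.16 to 1.74) in endothelial cells. Hoxc8 had 0.353 (0.15 to 0.71) in Schwann cells, 2.1 (1.5 to 2.99) in mural cells and 0.626 (0.537 to 0.73) in mesenchymal cells. Hoxc10 had 0.287 (0.104 to 0.637) in Schwann cells, 0.878 (0.792 to 0.975) in mesenchymal cells and 8.58 (2.75 to 43.1) in endothelial cells, the last from 3 and 45 UMIs.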

How the results depend on the processing

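Of 65 calls of a member in a comparison, 51 stayed called in every alternative that tested them, and none of 808 settings reversed a direction, while 47 lost a call. The calls that held were 24 of 26 (mesenchymal against Schwann), 23 of 25 (endothelial against Schwann), 1 of 5 (perineurial against mesenchymal), 0 of 5 (endoneurial against epineurial) and 3 of 4 (nmSC against mSC). The alternatives were DESeq2, no filter on low counts, no replicate block (the library as block is in the reported fits), only the classes compared, no doublet removal, Leiden resolutions of 0.5 and 1.5, a strict barcode filter and leaving out each library.

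Counts that moved by over 1.5 times were these. Perineurial against mesenchymal, higher (2 reported), gave 1 with DESeq2, 1 with no filter, 0 with no replicate block, 6 with only the 2 classes, and 1 to 3 when a library was left out. Endoneurial against epineurial, higher (1 reported), gave 0 with DESeq2, 2 with no filter, 0 with no replicate block, 0 at resolution 0.5, and 0 to 0 when a library was left out. The lower count (4 reported) gave 1 with no replicate block and 0 to 5 when a library was left out. nmSC against mSC, higher (4 reported), gave 7 with no filter, and Hoxb7 was lost with no replicate block and at resolution 1.5. Where P28 was left out of the endoneurial fit, fewer samples remained, and the cause of the other changes was not tested.

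Members detected in every library depended on the minimum: with 3 UMIs and 1 CPM there were 12 in Schwann cells, 16 in mural cells and 2 in macrophages, and with 10 UMIs and 20 CPM there were 0 in Schwann, 4 in mesenchymal and 7 in perineurial cells. The strict barcode filter gave 1 in macrophages. Median-of-ratios scaling gave a summed P60 over P0 ratio of 0.483 in Schwann and 1.28 in mesenchymal cells, and the perineurial P60 over P7 ratio was 1.33 without doublet removal. TMM and DESeq2 scaling shifted the median of all genes by less than 0.03 (log2). Depth limits the weakest members, and age has 1 library per point.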
